A study of Sus scrofa domesticus with 2 samples.

Results

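The genes described here encode the machinery of oxidative phosphorylation and were followed in cultured pig ECs by scRNA-seq. They were chosen by name. The 13 protein genes of the mitochondrial genome (ND1 to ND6, ND4L, COX1 to COX3, ATP6, ATP8 and CYTB) were joined with every nuclear gene whose symbol starts with NDUF, UQCR, SDH, ATP5, COX4, COX5, COX6, COX7 or COX8. The rule found 99 of the 22804 features, 13 mitochondrial and 86 nuclear members, of which 66 carried a symbol in the count tables and 20 were named through a table of gene names. Some members of the families, such as COX6B1, UQCRB, UQCRH, NDUFA1 and ATP5F1B, were not analysed here.

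The study is a single-cell atlas of the domestic pig, and the samples used here are its cultured ECs. Primary cells came from aorta near the lung in the first library, and from perfused lung in the second, after collagenase digestion. Both were grown in DMEM with fetal calf serum, and the labels name no further treatment or allele. They give no animal number and no age, so each source stands as 1 library, no test between groups can be made, and cells are not replicates. All intervals below are 95% intervals that cover counting error only.

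Oxidative phosphorylation couples the oxidation of NADH and succinate to the synthesis of ATP in the inner mitochondrial membrane. Complexes I and II pass electrons to ubiquinone, complex III passes them to cytochrome c, complex IV reduces oxygen, and complex V, the ATP synthase, uses the proton gradient that I, III and IV build. Complexes I, III, IV and V are mosaics of subunits from both genomes, whereas complex II is entirely nuclear. Cultured ECs are known to draw much of their ATP from glycolysis.

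The mitochondrial members lie on MT of Sscrofa11.1, and some share bases, so that a read near a shared end can be given to either gene or to none. These stretches are shown because ATP8 and ND4L were counted at low levels next to partners counted at high levels. Whether the shared bases bear on these counts was not tested. The capitals mark the bases that both genes hold on the plus strand, 43 bases at MT:9120-9162 for ATP8 (MT:8959-9162, complex V) and ATP6 (MT:9120-9800, complex V), and 7 bases at MT:11359-11365 for ND4L (MT:11069-11365, complex I) and ND4 (MT:11359-12736, complex I). ND5 (MT:12935-14755) and ND6 (MT:14739-15266) share 17 bases at MT:14739-14755, but ND6 is the member read from the minus strand.
ATP8 and ATP6: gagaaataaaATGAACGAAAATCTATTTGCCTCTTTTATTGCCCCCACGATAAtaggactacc
ND4L and ND4: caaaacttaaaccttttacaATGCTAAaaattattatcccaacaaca

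Of the 86 nuclear members, 71 matched a single RefSeq gene of Sscrofa11.1 with a promoter window of 250 bases before to 50 bases after the annotated start. The letters GCGCATGC, the core of the NRF1 motif, stood on either strand in 11 of these 71 windows (15.5%), against 3.06% of 19506 windows of all genes. The full palindromic NRF1 motif, which holds the core, stood in 4 (5.63% against 1.12%), the YY1 letters AAGATGGC in 7 (9.86% against 2.48%) and the ETS letters CCGGAAGT in 7 (9.86% against 4.69%). The median G and C content was 59.3% in the members and 58.7% in all windows. Shown are the windows of NDUFAF4 (chr1:64044775-64045074, minus strand), the member with the largest fold in collagen-high cells of both libraries, and ATP5PO (chr13:197519481-197519780, minus strand), the member with the lowest aorta fold among those called lower in both libraries where mitochondrial UMIs were 30% or more. Capitals mark the NRF1 core in both, and in ATP5PO also the YY1 letters, as a description of these windows.
NDUFAF4: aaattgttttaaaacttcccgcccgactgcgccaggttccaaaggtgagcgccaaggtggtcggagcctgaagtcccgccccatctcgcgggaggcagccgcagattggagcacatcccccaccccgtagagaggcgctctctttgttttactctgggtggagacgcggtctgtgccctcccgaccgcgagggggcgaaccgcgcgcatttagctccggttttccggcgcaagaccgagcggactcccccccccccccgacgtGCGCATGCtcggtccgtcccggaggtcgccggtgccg
ATP5PO: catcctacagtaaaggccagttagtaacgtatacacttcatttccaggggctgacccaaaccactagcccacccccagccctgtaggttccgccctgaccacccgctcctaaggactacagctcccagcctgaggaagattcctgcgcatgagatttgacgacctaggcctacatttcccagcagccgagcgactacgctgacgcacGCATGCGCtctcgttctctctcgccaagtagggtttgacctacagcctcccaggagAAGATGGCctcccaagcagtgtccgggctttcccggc

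The aorta library held 1185 barcodes and 46080859 UMIs (unique molecular identifiers, 1 per captured molecule), and the lung library 5946 barcodes and 57213236 UMIs, with 5 barcodes present in both. Barcodes with more than 200 detected genes were used, 1030 and 5789, and those under 30% of UMIs from 12 mitochondrial genes (without ND1) were clustered without the members and without the marker genes. Classes were set by how many markers of a list a cluster held at 2-fold or more, and gave endothelial cells without raised cycle markers (311 in the aorta, 2590 in the lung), endothelial cells with S markers (164 and 1208) or G2M markers (156 and 1171), and collagen-high cells (139 and 336). The S and G2M names are not pure phases, since the summed G2M markers stood at 2470 CPM in aorta S and 2252 in aorta G2M cells (1323 and 3231 in the lung), and 725 of the 2590 lung endothelial cells came from a cluster with CDC20 among its leading genes. A further 68 aorta cells were called EndMT-like (endothelial to mesenchymal transition) from 5 raised markers of that list. In them the endothelial markers summed to 54.4 CPM, with 7 of 12 at 0, and the mural markers to 4921 CPM. All 12 endothelial markers, among them PECAM1 and CDH5, had UMIs in the endothelial cells of both libraries, and their summed level was 3726 and 3998 UMIs per 1000000 against 97.3 and 460 in collagen-high cells. The same markers named the endothelial clusters, so these levels describe the classes and are no separate support for the names. Median depth was 52649 UMIs in aorta and 8857.5 in lung endothelial cells, so depth and source cannot be told apart between the libraries.

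Mitochondrial members are given below as a share of all UMIs. Nuclear members are given as a share, or in CPM (UMIs per 1000000), of nuclear UMIs, the UMIs of all genes other than the 13 mitochondrial members, so that one set does not scale the other. Levels count captured 3′ ends and are not divided by transcript length, so where a member is named as the highest of its complex this means the most UMIs, not the most RNA per length. A member was called higher or lower where its level was 20 or more CPM in either group, the fold was at least 1.5 and the interval of the ratio left out 1.

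In aorta endothelial cells the 13 mitochondrial members made up 7.65% of all UMIs (7.63 to 7.66) and the 86 nuclear members 1.60% of nuclear UMIs (1.60 to 1.61). In lung endothelial cells the same shares were 6.10% (6.09 to 6.11) and 1.93% (1.93 to 1.94). The lung library was thus lower in the mitochondrial and higher in the nuclear members, with a ratio of lung over aorta of 0.798 (0.796 to 0.8001) for the first and 1.21 (1.201 to 1.213) for the second.

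COX1, the catalytic subunit of complex IV, held 32.7% of the mitochondrial UMIs in the aorta and 36.5% in the lung. COX3, also of complex IV, held 25.6% and 25.4%. ND6, the minus-strand gene of complex I, was counted at 291 CPM of all UMIs in the aorta and 244 in the lung. ATP8 was counted at 29.4 and 22.9 CPM and ND4L at 84.4 and 68.1. Of the 13 mitochondrial members, 12 were lower in lung than in aorta endothelial cells with intervals below 1, and ND5 was the exception. ND5, a proton-pumping subunit of complex I, was at 1482 CPM in the aorta and 1860 in the lung, a ratio of 1.255 (1.24 to 1.27), and its share of mitochondrial UMIs went from 1.94% to 3.05%.

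Among the nuclear members, 71 of 86 reached 20 CPM in endothelial cells of each library, 50 in the aorta and 57 in the lung reached 100 CPM, and COX8H had no UMI in either library. The median member was at 137 CPM in the aorta and 173 in the lung.

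Complexes were assigned by symbol, so NDUFA4, known as a subunit of complex IV, was counted with complex I here and in all sums by complex. Among the members counted with complex I it had the most UMIs in the aorta, at 307 CPM, and was at 327 in the lung. NDUFV2, a subunit of the NADH-oxidising arm, had the most in the lung, at 342, and was at 287 in the aorta. For complex II, SDHA, which carries the flavin, was at 73.1 and 96.0 CPM, the iron-sulfur subunit SDHB at 98.5 and 114, and the membrane anchors SDHC and SDHD at 81.9 and 83.4 and at 58.5 and 53.8. Their ratios of lung over aorta were 1.31 (1.22 to 1.41) for SDHA and 1.16 (1.09 to 1.24) for SDHB, while the intervals for SDHC (0.946 to 1.09) and SDHD (0.842 to 1.01) held 1. For complex III, the Rieske iron-sulfur protein UQCRFS1 was at 244 and 265 CPM. For complex IV, COX4I1 had the most UMIs of all nuclear members, 1270 and 1819 CPM. For complex V, ATP5MC3, a copy of the rotor ring subunit, led the aorta at 598 CPM and was at 650 in the lung. ATP5F1A, the alpha subunit, led the lung at 730 and was at 575 in the aorta. ATP5IF1, which inhibits ATP hydrolysis by complex V, was at 509 and 582 CPM.

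In most paralog pairs, more UMIs were captured of the form known to be widely expressed. COX4I1 stood beside COX4I2 at 10.9 CPM in aorta and 4.74 in lung endothelial cells. COX7A2 was at 523 and 612 and COX7A1, the muscle form, at 7.97 and 13.3. COX8A was at 479 and 577, whereas COX8C had no UMI in aorta endothelial cells, which allows up to 0.203 CPM there, and was at 0.222 in lung endothelial cells. NDUFA4L2, known as a hypoxia target, was at 0.405 and 0.310, and COX6B2 at 1.89 and 0.488. COX6A2, the heart and skeletal muscle form, departed from this pattern at 61.8 and 64.7 CPM beside COX6A1 at 306 and 374.

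Between lung and aorta endothelial cells, 4 of 71 nuclear members tested were called higher in the lung (6.11% of 5920 features were) and 0 lower (13.2% of features). The median ratio of the members was 1.21 beside 0.970 over all features. The members called higher were NDUFS7, an electron-transferring subunit of complex I (135 in the aorta and 233 in the lung, 1.73-fold, 1.64 to 1.82), NDUFV1, its NADH-binding subunit (90.8 and 140, 1.55-fold, 1.45 to 1.65), NDUFA10 (142 and 216, 1.52-fold, 1.44 to 1.60) and UQCRC1, a core protein of complex III (123 and 185, 1.51-fold, 1.43 to 1.60). NDUFA9, at 1.4995-fold (1.40 to 1.61), and COX4I1, at 1.43-fold (1.41 to 1.46), lay just below the fold asked for. The count of 4 depended on the cells used, and was 19 with fewer than 5000 genes per cell and 1 at a clustering resolution of 1.5 or with 10 or 30 components.

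In S-phase cells the mitochondrial members were lower than in endothelial cells without raised cycle markers in both libraries. They made up 6.24% of all UMIs in the aorta and 4.94% in the lung, ratios of 0.817 (0.814 to 0.819) and 0.809 (0.806 to 0.811). In G2M cells they made up 6.54% and 5.25%, ratios of 0.856 (0.853 to 0.858) and 0.860 (0.858 to 0.863). The nuclear members stood closer to 1, with ratios of 1.03 (1.02 to 1.03) in the aorta and 0.986 (0.981 to 0.991) in the lung for S, and of 1.05 (1.04 to 1.05) and 0.958 (0.953 to 0.963) for G2M. UMIs of mitochondrial members per UMI of nuclear members accordingly went from 5.17 to 4.06 in S and 4.18 in G2M in the aorta, and from 3.36 to 2.72 and 2.99 in the lung.

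The same order was seen over cells thinned to 5000 UMIs each. The median mitochondrial share was 7.49% in endothelial, 5.96% in S and 6.29% in G2M cells of the aorta, and 5.82%, 4.84% and 5.12% in the lung. The thinning left out 3, 1 and 0 aorta and 90, 12 and 19 lung cells of these classes. Single clusters spread within a class. In the lung, the clusters without raised cycle markers ranged from 4.95%, in a cluster led by CXCL10, CCL5 and RSAD2, to 6.93%, and the S and G2M clusters from 4.79% to 5.35%. In the aorta, a cluster of 236 cells led by CXCL10 and CCL5 was at 7.84%, with nuclear members at 1.56%. The other, of 75 cells led by FOLR1, was at 6.95% and 1.76%. Aorta S and G2M nuclear shares, 1.64% and 1.67%, lay between these, so the direction of the aorta nuclear ratios depended on this mix.

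**Figure D1:**
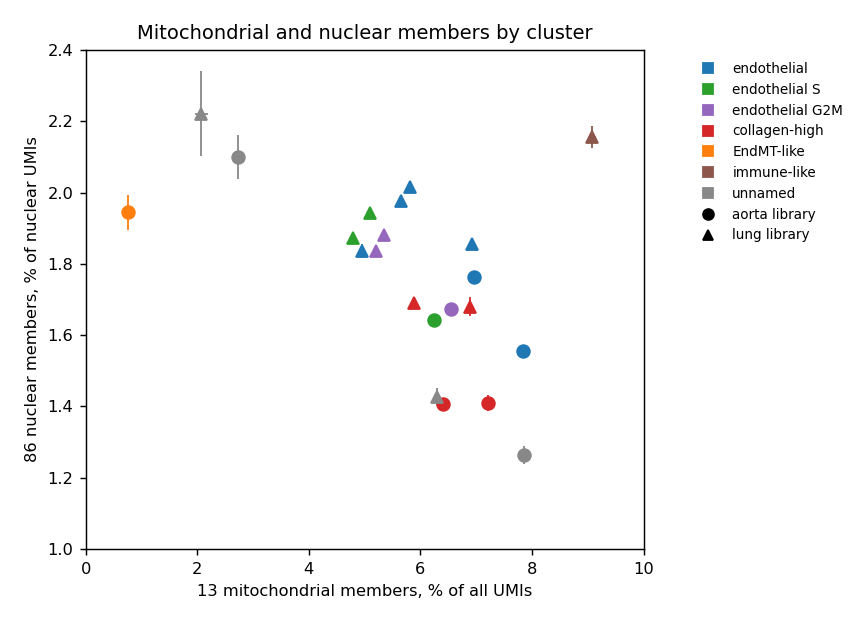
Each point is 1 cluster of the aorta (circles) or lung (triangles) library, coloured by class. The x axis gives the 13 mitochondrial members in % of all UMIs and the y axis the 86 nuclear members in % of nuclear UMIs, with counting intervals mostly smaller than the points. Within each library, S and G2M clusters lie to the left of most endothelial clusters and collagen-high clusters lie below the endothelial clusters. Between the libraries this order does not hold. The aorta EndMT-like cluster lies at 0.751% on the x axis.

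The lower mitochondrial share in cycling cells ran through nearly all of its genes. In S cells, 11 of 13 mitochondrial members had intervals below 1 in each library, with the lowest ratio at 0.737 in the aorta and 0.735 in the lung. ATP8 had an interval that held 1, and ND6 was higher, from 291 to 333 CPM in the aorta (1.14-fold, 1.09 to 1.19) and from 244 to 259 in the lung (1.06-fold, 1.02 to 1.11). In G2M cells ND6 was at 296 CPM in the aorta (1.02-fold, 0.966 to 1.07) and at 277 in the lung (1.13-fold, 1.09 to 1.18).

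Among nuclear members, 3 of 74 were called higher in aorta S cells (16.8% of features were) and 1 of 72 in lung S cells (8.05% of features), with 0 lower in either (7.97% and 2.41% of features). In G2M cells the counts higher were 2 of 73 (15.2% of features) and 1 of 72 (7.5%), again with 0 lower (8.61% and 2.02%). Every call was an assembly factor of complex I, a protein that helps to build the complex without staying in it. Each lay under 20 CPM in endothelial cells without raised cycle markers, so it was tested only because cycling cells reached that level. The calls are thus no result about assembly factors as a group. NDUFAF6 was called in both phases of both libraries, from 15.9 to 27.5 and 26.1 CPM in aorta S and G2M cells and from 18.4 to 27.99 and 27.8 in the lung. Its folds were 1.73 (1.45 to 2.07) and 1.65 (1.36 to 1.99) in the aorta and 1.52 (1.31 to 1.75) and 1.51 (1.31 to 1.74) in the lung. No member was called in S cells of both libraries with per-cell means, without the deepest 5% of cells or with 10 components, nor in G2M cells of both at resolution 1.5 or with 10 components. NDUFAF5 was called in both aorta phases, from 10.1 to 23.7 and 20.6 CPM. It lay under 20 CPM in the lung, at 8.03, 14.1 and 11.4. NDUFAF4 was called in aorta S cells, from 11.8 to 21.6 CPM. All 8 NDUFAF genes together differed little, with a ratio of 1.04 (0.986 to 1.11) in aorta and 1.01 (0.958 to 1.06) in lung S cells.

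Summed by complex, the nuclear members divided. Those of complex IV were lower in cycling cells of both libraries, with S ratios of 0.906 (0.895 to 0.917) in the aorta and 0.935 (0.927 to 0.944) in the lung, and G2M ratios of 0.893 and 0.923. Within complex IV, COX6C went from 398 to 283 and 276 CPM in aorta S and G2M cells and from 392 to 322 and 326 in the lung. Those of complex II were the highest in relative terms in the aorta, at 1.13 (1.09 to 1.18) in S and 1.24 (1.19 to 1.29) in G2M cells. There SDHB went from 98.5 to 123 and 144 CPM, while in the lung it was at 114, 123 and 120. Complexes I and V were above 1 in aorta G2M cells, at 1.12 and 1.08, and below 1 in lung G2M cells, at 0.973 and 0.964.

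**Figure D2:**
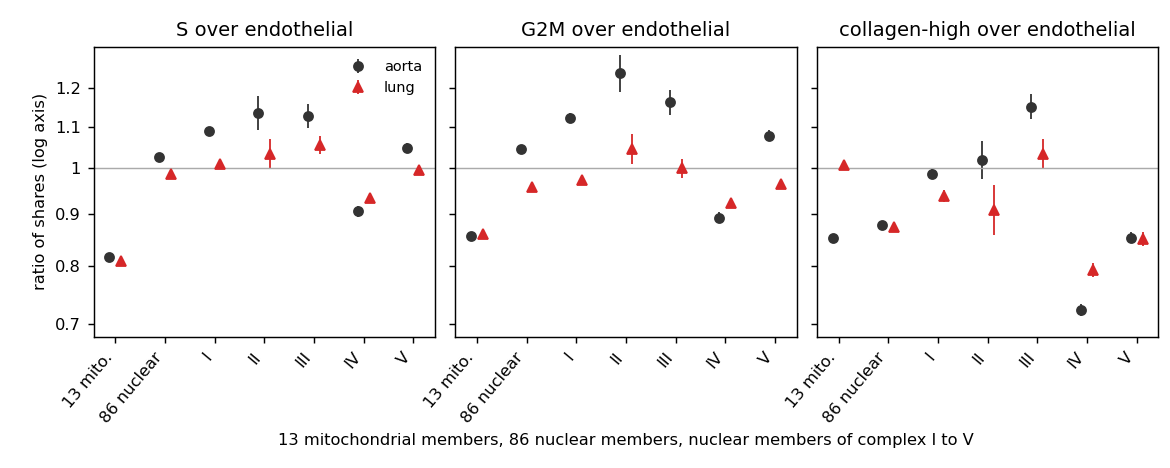
Ratios to endothelial cells without raised cycle markers of the same library, for S, G2M and collagen-high cells from left to right, on a log axis. Circles are the aorta and triangles the lung library, and bars are 95% counting intervals. The mitochondrial members lie near 0.8 to 0.86 in S and G2M cells of both libraries, and nuclear complex IV is the lowest nuclear group in collagen-high cells.

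Collagen-high cells were set against endothelial cells in the same way. Their mitochondrial share was 6.52% in the aorta, a ratio of 0.852 (0.850 to 0.855), and 6.15% in the lung, a ratio of 1.01 (1.003 to 1.012). The nuclear share was lower in both, 1.41% with a ratio of 0.879 (0.873 to 0.885) in the aorta and 1.69% with a ratio of 0.873 (0.866 to 0.881) in the lung. Complexes IV and V had the lowest ratios. Complex IV had ratios of 0.724 (0.714 to 0.734) and 0.792 (0.779 to 0.805), and complex V of 0.853 (0.842 to 0.865) and 0.851 (0.838 to 0.865). Complex III was at 1.15 (1.12 to 1.18) and 1.03 (0.999 to 1.07), complex II at 1.02 (0.976 to 1.07) and 0.909 (0.858 to 0.962), and complex I at 0.988 (0.976 to 0.999) and 0.939 (0.926 to 0.952).

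Of the nuclear members, 9 of 74 were called lower in aorta collagen-high cells (23.9% of features were) and 5 higher (26.9% of features). In the lung 3 of 73 were called lower (17.4% of features) and 3 higher (18.8%). These shares of the members lay below those of all features in both directions, a description with no test, and the members' median ratios were 0.949 and 0.873 beside 1.06 and 1.04 over all features.

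The members called lower in both libraries were small subunits of complex IV. COX7B was at 222 CPM in aorta endothelial and 103 in collagen-high cells (0.464-fold, 0.429 to 0.5005), and at 223 and 138 in the lung (0.618-fold, 0.562 to 0.677). COX6C was at 398 and 198 in the aorta (0.497-fold, 0.470 to 0.525) and at 392 and 247 in the lung (0.631-fold, 0.589 to 0.676). COX7A2 and COX8A were called in the aorta, where COX8A went from 479 to 276 CPM, and had ratios of 0.762 and 0.741 in the lung. Of the other members called lower, NDUFS5 belongs to complex I, and ATP5F1E and ATP5ME to complex V, and all were called in the aorta.

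The members called higher in both libraries were NDUFAF4 and NDUFAF6, assembly factors of complex I. These, and NDUFAF5 in the aorta, lay under 20 CPM in endothelial cells. They were tested only because collagen-high cells reached that level. NDUFAF4 (chr1:64038277-64044824) was at 11.8 CPM in aorta endothelial and 36.7 in collagen-high cells (3.12-fold, 2.58 to 3.79), and at 9.62 and 23.5 in the lung (2.44-fold, 1.88 to 3.15). NDUFAF6 (chr4:41619480-41655682) was at 15.9 and 34.1 in the aorta (2.15-fold, 1.80 to 2.57) and at 18.4 and 33.3 in the lung (1.81-fold, 1.46 to 2.22). NDUFAF5 was at 10.1 and 26.8 in the aorta, a call, and at 8.03 and 17.8 in the lung, under the level asked for. The 8 assembly factors as a sum were level, with ratios of 1.02 (0.962 to 1.09) and 0.966 (0.891 to 1.05), and NDUFAF3 and NDUFAF8 were called lower in the aorta. Further calls were NDUFA9 and UQCRC1 in the aorta (76.4 to 116 and 123 to 196) and NDUFB1 in the lung (88.2 to 185).

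**Figure D3:**
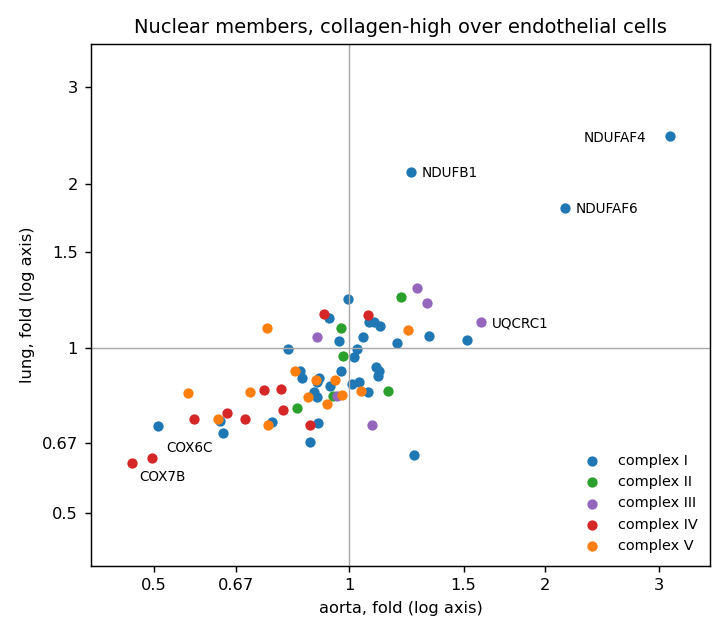
Each point is 1 nuclear member tested in both libraries, coloured by complex, with its ratio of collagen-high over endothelial cells in the aorta on the x axis and in the lung on the y axis, both on log scales. NDUFAF4 and NDUFAF6 lie at the upper right and COX7B and COX6C at the lower left.

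Aorta collagen-high cells also carried cycle transcripts, with a summed G2M marker level of 2317 CPM against 205 in endothelial cells (1183 against 416 in the lung). Set against G2M endothelial cells of the same library, their mitochondrial share had a ratio of 0.996 (0.992 to 0.9998) in the aorta and 1.17 (1.17 to 1.18) in the lung. Complex IV remained low at 0.810 (0.797 to 0.823) and 0.858 (0.844 to 0.872), and COX7B at 0.590 and 0.702. NDUFAF4 remained high at 1.95 (1.59 to 2.39) and 2.09 (1.58 to 2.75). NDUFAF6 was at 1.31 (1.09 to 1.57) in the aorta and 1.197 (0.966 to 1.48) in the lung, an interval that held 1. The summed fibroblast markers stood at 11515 and 12467 CPM in collagen-high cells against 428 and 115 in endothelial cells, and the mural markers at 4079 and 4041 against 282 and 1040. COL1A1 and COL1A2, which are in the fibroblast list, named the collagen-high cells, so the fibroblast levels follow in part from the naming. The part of fibroblast and mural transcripts in the values of the members was not tested.

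COX4I2, a regulatory form of subunit 4 known from lung and hypoxic cells, was low in each class but highest in endothelial cells. It stood at 10.9 CPM in aorta endothelial, 5.16 in S, 3.31 in G2M and 1.72 in collagen-high cells (0.157-fold, 0.084 to 0.271, on 14 UMIs), and at 4.74, 2.68, 2.46 and 2.73 in the lung. COX7A1 went from 7.97 to 2.46 CPM in aorta and from 13.3 to 4.37 in lung collagen-high cells. Both lay under the level asked for a call.

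Other mitochondrial genes were read from lists chosen by pathway, and each count below stands beside the share of all features called. Higher were 26.9% of features in aorta and 18.8% in lung collagen-high cells, 16.8% and 8.05% in S cells, and 15.2% and 7.5% in G2M cells, and lower in collagen-high cells 23.9% and 17.4%. Of the mitochondrial ribosome list (69 features), 21 of 67 were called higher and MRPL33 lower in aorta collagen-high cells, and 6 of 68 higher and again MRPL33 lower in the lung. MRPL50 was among those higher in both (2.28-fold and 1.59-fold). In aorta S and G2M cells 10 of 66 and 13 of 67 ribosome genes were higher, and in the lung 0 of 67 and 1 of 67, none lower. Of the genes for mitochondrial DNA expression, 5 of 8 were called higher in aorta S cells and 2 of 8 in lung S cells. TFAM, which packages and transcribes mitochondrial DNA, went from 32.2 to 91.4 CPM (2.84-fold, 2.54 to 3.18) in aorta and from 37.1 to 69.9 (1.88-fold, 1.71 to 2.07) in lung S cells, where the mitochondrial transcripts themselves were lower. The 20-gene list had 3 of 6 higher in aorta and 0 of 7 in lung G2M cells, and 4 of 7 and 2 of 8 in collagen-high cells, with TFB1M, a ribosomal RNA methyltransferase, in both.

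In the list of complex III and electron carriers outside the rule, CYC1, the cytochrome c1 of complex III, was higher in aorta S, G2M and collagen-high cells (1.53, 1.64 and 1.56-fold) and at 1.18, 1.12 and 1.12 in the lung. The other members of that list called were ETFDH in both kinds of collagen-high cells, COQ7 in aorta G2M cells and, lower, ETFB in aorta collagen-high cells. Assembly genes outside the rule had 3 of 15, 2 of 13 and 2 of 15 higher in aorta collagen-high, S and G2M cells, among them ACAD9, and 1 of 14, 0 of 13 and 0 of 14 in the lung. The citrate cycle had 3, 1 and 3 of 13 higher in the aorta and 1, 0 and 0 of 13 in the lung, and the carriers and pores 2, 0 and 2 of 6 in the aorta and 1, 0 and 0 of 6 in the lung. Among the regulators, HIF1A, the oxygen-sensing transcription factor, was lower in collagen-high cells, from 740 to 200 CPM in the aorta (0.270-fold, 0.256 to 0.285) and from 558 to 207 in the lung (0.370-fold, 0.344 to 0.399). PPRC1, a coactivator of the PGC-1 family, was higher there, at 1.91-fold and 2.36-fold. GABPA and ESRRA were also called higher in aorta collagen-high cells, ESRRA in the lung, GABPA and PPRC1 in aorta S cells and PPRC1 in lung S cells, with 0 regulators called in G2M cells. Between lung and aorta endothelial cells these lists had 8 of 67 ribosome genes, 2 of 13 citrate cycle genes, VDAC3, ACAD9 and no regulator, expression or carrier-list gene higher, and 0 lower, beside 6.11% of features higher and 13.2% lower.

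The second comparison followed the nuclear members across barcodes with little or much mitochondrial RNA. Bins were set by the 12 mitochondrial genes, so the mitochondrial level across them is fixed by construction. It was 0.154%, 6.88% and 64.6% of all UMIs under 1%, at 1 to 30% and at 30% or more in the aorta (110, 845 and 75 barcodes), and 0.370%, 5.68% and 54.8% in the lung (39, 5670 and 80 barcodes). The nuclear members went the other way. Their share of nuclear UMIs was 2.06% (2.02 to 2.10), 1.58% and 0.636% (0.603 to 0.669) in the aorta, and 2.19% (2.09 to 2.31), 1.89% and 0.921% (0.841 to 1.01) in the lung. Relative to the middle bin these were ratios of 1.30 (1.27 to 1.33) and 0.402 (0.381 to 0.423) in the aorta and of 1.16 (1.11 to 1.22) and 0.488 (0.446 to 0.533) in the lung.

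Finer bins showed that most of this lay at the ends. Between 1% and 15% of mitochondrial UMIs the nuclear share stayed between 1.49% and 1.61% in the aorta and between 1.81% and 1.92% in the lung. In the lung it was 2.15% at 15 to 20% (27 barcodes), 1.46% at 20 to 30% (19 barcodes) and 0.966% at 30 to 50% (33 barcodes). In the aorta it was 0.722% at 30 to 50% (13 barcodes) and 0.556% at 50 to 70% (33 barcodes).

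Under 1%, 26 of 75 nuclear members tested were called higher in the aorta (10.7% of features were) and only SDHA lower (38.0% of features). In the lung 7 of 73 were called higher (3.94% of features) and 0 lower (3.76%). The median ratios were 1.40 and 1.23, beside 0.750 and 0.990 over all features. UQCRQ, a small subunit of complex III, was at 284 CPM under 1% and 109 in the middle bin of the aorta (2.61-fold, 2.15 to 3.14), and at 242 and 138 in the lung (1.75-fold, 1.02 to 2.80). COX6A1, of complex IV, was at 493 and 273 in the aorta (1.81-fold, 1.57 to 2.08) and 640 and 346 in the lung (1.85-fold, 1.35 to 2.48). SDHC (1.78-fold and 2.41-fold), NDUFA6 (1.61-fold and 2.56-fold), COX7A2L (1.52-fold and 1.66-fold) and NDUFAB1 (1.53-fold and 1.60-fold) completed the 6 members called in both. SDHA was at 49.3 and 77.9 in the aorta (0.633-fold, 0.386 to 0.980), and at 99.6 and 98.6 in the lung.

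These barcodes were shallow and, unlike in the middle bin, most were EndMT-like or unnamed. Their median depth was 3250.5 UMIs in the aorta and 1093 in the lung. In the aorta 52 of the 110 were EndMT-like and 54 unnamed, and in the lung 33 of the 39 were unnamed. Unnamed marks shallow clusters and not a lack of endothelial markers. The unnamed clusters held 8 and 10 of the 12 endothelial markers in the aorta and 11 and 6 in the lung. Over all unnamed cells these markers summed to 2840 CPM in the aorta and 3505 in the lung. Over all barcodes under 1%, the summed endothelial marker level was 493 CPM in the aorta against 2872 in the middle bin, and 2063 against 3523 in the lung. Among barcodes with UMIs of 2 or more endothelial markers and none of COL1A1 or COL1A2, the ratio was 1.31 (1.26 to 1.37, 30 against 144 barcodes) in the aorta and 1.12 (1.04 to 1.197, 13 against 4094 barcodes) in the lung. Among EndMT-like cells alone it was 1.18 (1.11 to 1.27, 52 against 16 cells).

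At 30% or more, 56 of 75 nuclear members were called lower in the aorta (15.0% of features were) and 1 higher (41.7% of features), and in the lung 25 of 72 lower (5.98% of features) and 0 higher (24.1%). All 25 were also among the 56 of the aorta. The median ratios were 0.385 and 0.445, whereas the median over all features was 1.60 and 1.75. A feature entered at 20 CPM in either group, so features captured more in these small bins were tested because of that. There were 7748 and 7071 features tested here, against 6170 under 1% in each library. The part of this filter in the medians and shares over all features was not tested. In the aorta the calls covered 6 of 6 members of complex III, 10 of 11 of complex IV, 13 of 14 of complex V, 25 of 38 of complex I and 2 of 6 of complex II, and in the lung 2 of 6, 6 of 11, 9 of 13, 8 of 36 and 0 of 6.

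ATP5MC3 was at 106 CPM at 30% or more and 649 in the middle bin of the aorta (0.163-fold, 0.104 to 0.242), and at 186 and 657 in the lung (0.283-fold, 0.136 to 0.521). ATP5PO, the stalk subunit that links the parts of complex V, was at 39.6 and 268 in the aorta (0.148-fold, 0.067 to 0.280) and at 130 and 324 in the lung (0.402-fold, 0.162 to 0.829). NDUFV2 was at 83.6 and 322 in the aorta (0.260-fold) and at 55.8 and 343 in the lung (0.163-fold). Of the other leading calls, NDUFS8, an iron-sulfur subunit of complex I, had ratios of 0.271 and 0.163, and COX7C, of complex IV, 0.283 and 0.181. The lung values of NDUFV2 and NDUFS8 rest on 3 UMIs each and those of COX7C on 4. COX4I1 was at 647 against 1189 in the aorta (0.544-fold, 0.460 to 0.640) and at 1302 against 1759 in the lung (0.740-fold, 0.577 to 0.935).

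A few members departed from the rest. The only one called higher was NDUFAF7, an arginine methyltransferase that acts in complex I assembly, at 22.01 CPM on 5 UMIs against 2.73 in the aorta (8.06-fold, 2.57 to 19.4). With 2.73 CPM in the middle bin, it was tested only through the high bin. COX6A2 was at 92.5 against 57.6 in the aorta (1.60-fold, 0.991 to 2.46) and at 112 against 61.8 in the lung (1.81-fold, 0.662 to 3.93), intervals that held 1. SDHA was at 66.0 against 77.9 in the aorta (0.848-fold, 0.474 to 1.40).

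Transcripts of cytosolic ribosomal proteins showed the same order across the bins. Their share of nuclear UMIs (67 features) was 19.6%, 14.3% and 3.41% in the aorta and 17.2%, 16.3% and 5.16% in the lung. The mitochondrial ribosome list had 33 of 67 and 10 of 67 called lower at 30% or more, 0 higher, and the carriers and pores 5 of 6 and 6 of 6. The complex III and carrier list had 3 of 7 and 2 of 7 lower, the citrate cycle 6 of 13 and 2 of 13 lower and 1 higher in each, and assembly genes 5 of 16 and 1 of 15 lower with 3 and 2 higher. Genes for mitochondrial DNA expression had 4 of 13 higher in the aorta and 0 of 12 in the lung, none lower, and of the regulators 1 of 6 and 0 of 3 were higher and 0 lower. Under 1% the ribosome list had 27 of 68 and 3 of 67 higher, none lower, and the other lists at most 3 genes each way. Of all features 15.0% and 5.98% were lower and 41.7% and 24.1% higher at 30% or more, and 10.7% and 3.94% were higher under 1%.

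Transcript length also moved with these ratios. The longest annotated transcript of the tested members had a median of 846.5 bases in the aorta comparison, against 3535 over all features. At 30% or more, other features with transcripts of at most 1000 bases had a median ratio of 0.385 in the aorta (386 features) and 0.495 in the lung (382 features), and the members of that length 0.321 (40 members) and 0.426 (39 members). Features above 6000 bases had medians of 2.69 and 2.84. Members above 1000 bases, with median lengths of 1768.5 and 1686.5 bases, were at 0.548 (24 members) and 0.440 (22 members). Other features of 1000 to 1500 bases were at 0.643 and 0.721, and those of 1500 to 2000 bases at 0.843 and 0.897. Those of 2000 to 3000 bases were at 1.31 and 1.37. A length was known for 71 of the 86 nuclear members, and not for COX4I1 or most of complex III. Across all features Spearman's rho between length and ratio was 0.580 (6911 features) in the aorta and 0.501 (5974 features) in the lung. Across the members it was 0.410 (64) and 0.169 (60). These are across genes within a library, and genes are not independent replicates. Under 1% the order was turned, with rho of -0.495 and -0.235 over all features and medians of 1.36 and 1.19 for other short features against 1.48 and 1.33 for short members. Medians of ratios count a feature with no UMI in the bin as 0, whereas rho and the lengths leave such features out. The part of length in the members' ratios was not tested.

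**Figure D4:**
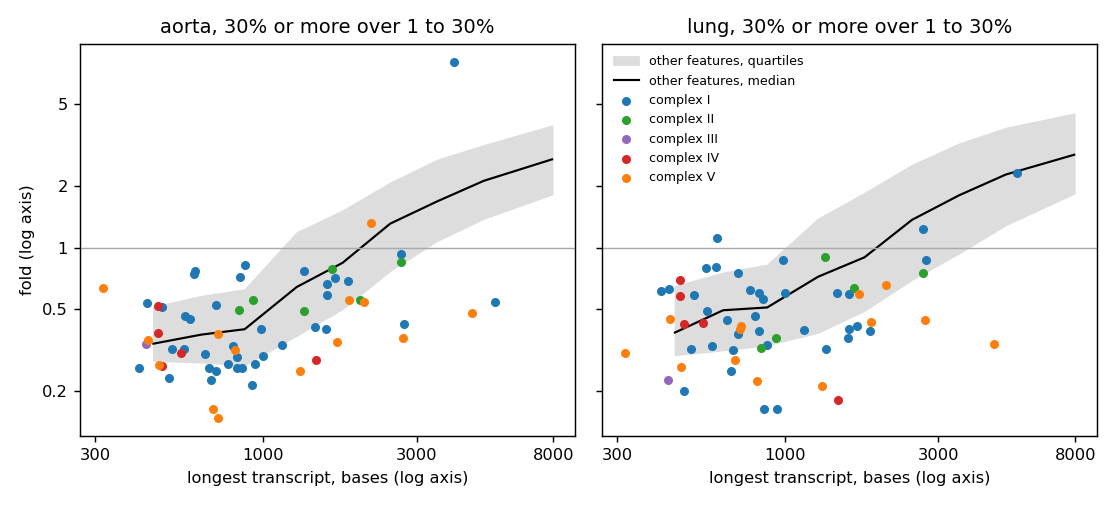
Each point is 1 nuclear member with a known transcript length, coloured by complex, with the length of its longest annotated transcript in bases on the x axis and its ratio of barcodes at 30% or more over those at 1 to 30% on the y axis, both on log scales, for the aorta (left) and the lung (right). The line is the median and the band the quartiles of other features in bins of length. Most members are short and lie where other short features lie, below 1.

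Markers of cell type moved with the high bin too. The summed endothelial level was 5882 CPM in the aorta and 8312 in the lung, and the fibroblast level 9448 and 3273 against 2565 and 966 in the middle bin. KDR was at 0 in both high bins, and in the lung also DCN, LUM, PDGFRA and DPT. At these depths a count of 0 does not show absence, and DCN and DPT were also at 0 in lung endothelial cells. The summed mural level was 1206 CPM against 1025 in the middle bin of the aorta and 800 against 1245 in the lung. The summed EndMT level was lower in both, 6230 against 9732 and 4054 against 7114. Median depth was 7732 UMIs in the aorta and 1400 in the lung. Within barcodes holding 2 or more endothelial markers and no type I collagen UMI, the nuclear members had ratios of 0.313 (0.276 to 0.353, 28 against 144 barcodes) in the aorta and 0.480 (0.430 to 0.534, 48 against 4094 barcodes) in the lung. In the aorta only 144 of the 845 barcodes of the middle bin met this, so the comparison covers a small part of that bin.

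The mitochondrial members did not keep the same proportions across bins or classes. ND1, the one mitochondrial member outside the share that set the bins, went from 1715 to 7221 CPM between the bins of 1 to 3% and 10 to 15% in the aorta, and from 1721 to 6976 in the lung. ND6 did not rise with it over that range. In the aorta it was highest at 1 to 3%, at 373 CPM (316 to 438), and lowest at 7 to 10%, at 258 (249 to 267). In the lung it lay between 250 and 303 CPM, and was at 454 in the bin of 15 to 20% and 1961 at 20 to 30%. At 30% and above ND6 was between 3459 and 6197 CPM in the aorta bins and between 3258 and 4204 in the lung bins. Its share of mitochondrial UMIs at 30% or more was 1.61 times that of the middle bin in the aorta (1.55 to 1.68) and 1.62 times in the lung (1.47 to 1.77). ND4 went the other way, at 0.777 and 0.805 times.

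**Figure D5:**
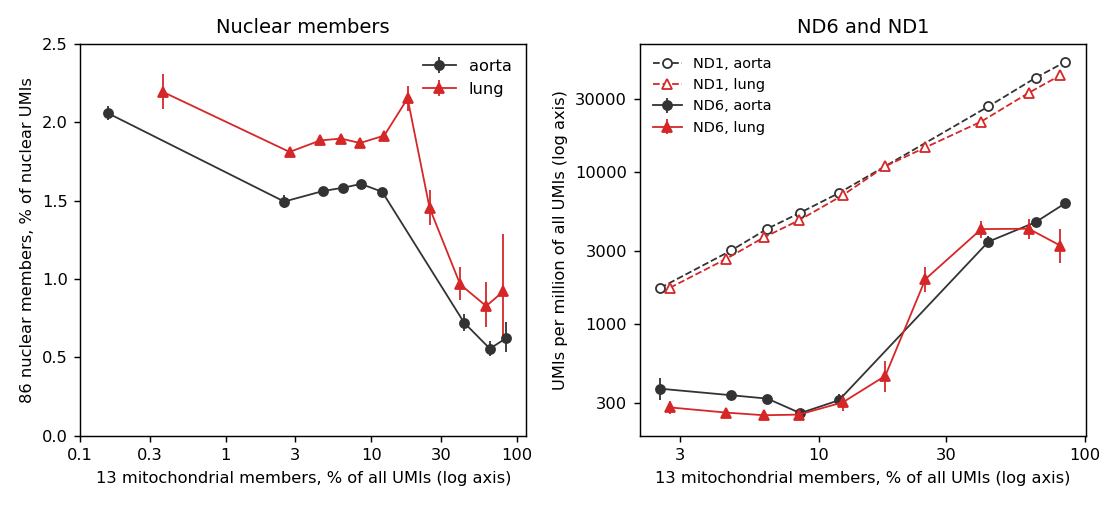
Left, the 86 nuclear members in % of nuclear UMIs over bins of the mitochondrial share, and right, ND6 and ND1 in CPM of all UMIs over the same bins on log axes, for the aorta (black) and the lung (red), with 95% counting intervals. The nuclear share varies little between 1% and 15% and is lower above 20%. Between 1% and 15% ND1 is higher in each further bin while ND6 is not, and above 15% ND6 is higher too.

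In collagen-high cells the proportions differed as well. The share of COX1 among mitochondrial UMIs was 0.853 (0.848 to 0.858) times that of endothelial cells in the aorta and 0.852 (0.846 to 0.859) times in the lung. ATP6 was at 1.21 and 1.15 times, COX3 at 1.08 and 1.18 times and ND6 at 1.41 and 1.103 times. ND2 and ND4 differed between the libraries, with ND2 at 1.00 (0.989 to 1.01) in the aorta and 0.770 (0.755 to 0.784) in the lung, and ND4 at 0.974 and 1.22. Of 13 mitochondrial members, 10 were lower in CPM of all UMIs and ATP8, ATP6 and ND6 higher in aorta collagen-high cells, whereas in the lung 4 were lower, 6 higher and 3 had intervals that held 1.

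ND4L, the short gene that overlaps ND4, was among the 10 leading genes of an unnamed aorta cluster of 39 cells led by CA14. It was at 182 CPM there and 84.4 in endothelial cells, which is 0.232% (0.195 to 0.273) against 0.110% of mitochondrial UMIs. The CA14-led cluster of the lung (267 cells) held 0.192% (0.158 to 0.231) against 0.112%, and its ND5 share was 5.37% against 3.05%. Median depth was 9951 UMIs in the aorta cluster and 2993 in the lung cluster, and the nuclear share was the lowest of all clusters in both, 1.26% and 1.43%. Though unnamed, these clusters held 10 and 11 of the 12 endothelial markers.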

How the data were processed

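Droplet 3′-end libraries of cultured aorta and lung ECs, 1 each, were analysed. The authors deposited counts, the UMIs per gene and barcode from Cell Ranger 3.0.2 on Sscrofa11.1, without normalization. The members and gene lists were chosen with earlier results of these data known. Barcodes were kept above 200 genes and below 30% in the summed share of 12 mitochondrial genes, then clustered per library in Seurat 5.3.0 (R 4.3.3, 2000 variable genes before removal of markers and members, 20 components, resolution 1). Clusters were named from markers raised 2-fold or more, and endothelial clusters from 3 or more markers held at 0.25 or more of the highest cluster. Shallow clusters not led by a marker of their own list were left unnamed. UMIs were summed per library and class in Python 3.11.15 (numpy 2.4.6, pandas 2.3.3). Intervals were exact Poisson for levels, Clopper-Pearson for shares and exact conditional for ratios (scipy 1.17.1). Scrublet (scanpy 1.11.5) marked as doublets 9 cells in the aorta (of 955) and 2 in the lung (of 5709, 0.0350%, a rate at which it had not worked). Doublets were kept. Named were all mitochondrial members, the highest nuclear member per complex, paralog pairs, SDHA to SDHD, ATP5IF1 and up to 5 members each way per comparison, called in both libraries. Others named were chosen after their values were seen. The calls were checked on simulated counts. The study's upper limit of 5000 genes, which leaves 246 of 955 aorta cells, was an alternative, as were other members, weights, depths, clusterings, phases, scalings, bin edges, levels and folds. Places, lengths and promoters came from RefSeq of the same build and counts rest on Ensembl models, so gene ends may differ. The values of 1 member are not reported here.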

Additional observations from a re-analysis of the deposited data

Results flagged for a closer look

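Several ratios lay on opposite sides of 1 in the aorta and lung libraries, with intervals that left out 1 in each. With 1 library per source the difference was not tested. The mitochondrial members in collagen-high over endothelial cells had a ratio of 0.852 in the aorta and 1.01 in the lung. The nuclear members had ratios of 1.05 and 0.958 in G2M cells and of 1.03 and 0.986 in S cells. In G2M cells the nuclear members of complex I were at 1.12 and 0.973 and those of complex V at 1.08 and 0.964. The signs of 2 of these were not stable. The lung collagen-high mitochondrial ratio turned to 0.9995 with fewer than 5000 genes, 0.997 at resolution 0.8 and 0.998 with 30 components, and the aorta G2M nuclear ratio to 0.981 at resolution 1.5, 0.990 with 10 and 0.998 with 30 components.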

How the results depend on the processing

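No paired analysis was possible because each source had 1 library. The ratio of the mitochondrial over the nuclear ratio is given below for collagen-high, S and G2M cells in that order. As reported it was 0.969, 0.797 and 0.818 in the aorta and 1.15, 0.820 and 0.897 in the lung. In the aorta, collagen-high cells turned to 1.26 with fewer than 5000 genes, 1.03 at resolution 1.5, 1.01 with 10 or 30 components and 1.18 over G2M cells (1.28 in the lung), the last chosen after seeing the data. They were at 0.958 with symbols of the files only, 0.980 with per-cell means, 0.988 without the deepest 5% of cells and 0.958 per all UMIs. Other aorta S values were 0.810 (per-cell means), 0.850 (resolution 1.5), 0.840 and 0.829 (10 and 30 components), 0.791 (doublets removed), 0.785 (all UMIs) and 0.812 (CellCycleScoring), and G2M values 0.812 (file symbols), 0.789 (per-cell means), 0.864 (resolution 1.5), 0.845 and 0.862 (10 and 30 components), 0.809 (all UMIs) and 0.832 (CellCycleScoring). In the lung, collagen-high cells were at 1.17 with per-cell means or without the deepest 5%, and 1.14 at resolution 0.8. S cells were at 0.810 with fewer than 5000 genes or per all UMIs, 0.813 (per-cell means), 0.811 (resolution 0.8), 0.835 (30 components) and 0.828 (CellCycleScoring), and G2M cells at 0.884 (fewer than 5000 genes), 0.889 (per-cell means or all UMIs), 0.886 (without the deepest 5%), 0.867 (resolution 1.5), 0.861 and 0.884 (10 and 30 components) and 0.882 (CellCycleScoring). S and G2M values stayed below 1 in all of these. The lung collagen-high mitochondrial ratio turned to 0.9995 with fewer than 5000 genes, 0.997 at resolution 0.8 and 0.998 with 30 components, and the aorta G2M nuclear ratio to 0.981 at resolution 1.5, 0.990 with 10 and 0.998 with 30 components. The cause was not tested.

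For the nuclear members at 30% or more, the aorta ratio of 0.402 became 0.485 with fewer than 5000 genes, 0.427 (file symbols), 0.471 (per-cell means), 0.153 (all UMIs), 0.446 (13 genes in the share), 0.482 (edges of 0.5% and 20%) and 0.313 (endothelial markers, added later), and the lung ratio of 0.488 became 0.234 (all UMIs) and 0.618 (other edges). Under 1%, the aorta ratio of 1.30 became 1.57 with fewer than 5000 genes, 1.40 (all UMIs) and 1.18 (EndMT-like cells, added later), and the lung ratio of 1.16 became 1.23 (all UMIs, 13 genes or other edges) and, with 5000 or more UMIs, 0.823 on 1 barcode.

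The 4 members higher in the lung became 19 with fewer than 5000 genes, 1 at resolution 1.5 or with 10 or 30 components and 0 at a fold of 2, and the 0 lower became 1 at a level of 5. The 2 higher in collagen-high cells of both libraries became 0 (fewer than 5000 genes), 1 (file symbols, or a fold of 2) and 4 (level of 5), and the 2 lower 1 (file symbols) and 0 (fold of 2). The 1 higher in S cells became 0 (per-cell means, without the deepest 5%, 10 components or a fold of 2) and 2 (level of 5), and the 1 higher in G2M cells 0 (resolution 1.5, 10 components or a fold of 2). In all, 112 of these values stayed within their interval or within 1.5 times, 71 moved and 6 reversed, and of single members and shares 63 stayed, 69 moved and 6 reversed. The limit of 5000 genes left no aorta S or G2M class, lung doublets were not removed, and the lung held no barcode at 30% or more with 5000 UMIs. At these depths single members at 30% or more rest on few UMIs in the lung.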
